A study of Mus musculus with 6 samples.

Results

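The 10 genes of the sperm ADAM system were followed here, as 10 of the 32285 genes in the deposited count matrices, and were chosen by symbol. They comprised 6 genes for ADAM proteins of sperm (Adam1a, Adam2, Adam3, Adam5, Adam18 and Adam32), 3 genes for testis-specific folding helpers of the endoplasmic reticulum (Clgn, Calr3 and Pdilt) and Tex101, which codes for a surface protein of germ cells anchored by glycosylphosphatidylinositol (GPI). The questions were when each gene was expressed along the germ cell stages, and whether its level differed between control and nicotine-exposed mice.

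ADAM proteins carry a disintegrin and a metalloprotease-like domain, and germ cells of the testis make several that end up on the sperm surface. The best known is ADAM3, whose absence from sperm leaves them unable to pass from the uterus into the oviduct through the uterotubal junction. ADAM3 reaches the surface only if it is folded and paired correctly in the endoplasmic reticulum, which calls on the lectin chaperone calmegin (Clgn), the calreticulin-like calsperin (Calr3), the disulfide isomerase-like PDILT and the ADAM1A-ADAM2 heterodimer, a form of fertilin. TEX101 takes part in the maturation of ADAM3 later and is shed from sperm in the epididymis.

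Whole testes came from 6 male C57BL/6J mice aged 11 weeks, 3 controls given plain drinking water and 3 mice whose water held 200 µg/mL nicotine for 8 weeks from the age of 3 weeks. Both testes of a mouse were minced, digested for a short time and strained, and the cell suspension made 1 droplet-based 3′ single-cell library, so a mouse is the replicate (n = 3 a group). No cell type was sorted, exposure was through the whole body, and the strainer limits which cells entered. The libraries held 10823 to 12317 cell barcodes and 67853893 to 88329607 UMIs (unique molecular identifiers, each counting 1 captured transcript), and 61945 cells were kept, with a median of 2202 to 2901 UMIs per cell in the 6 mice. Any pair of libraries shared 22 to 47 cell barcodes.

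Cell names were rebuilt from marker genes, with the 10 genes left out of the clustering, and are written as "-like". The cells fell into 27 clusters, and 5 clusters with 25.2% of the kept cells stayed unnamed. Germ cell clusters of ordinary depth, with the early spermatocyte-like cluster split further, were set in 15 stages by their marker scores, from spermatogonium-like (stage 1) through early spermatocyte-like (stage 2), early to pachytene spermatocyte-like (stages 3 to 5), pachytene to late spermatocyte-like (stage 6), late spermatocyte-like (stage 7) and round spermatid-like (stages 8 to 11) to elongating spermatid-like cells (stages 12 to 15). Levels are CPM, the gene's UMIs per 1000000 UMIs of those cells in a mouse. Stages 1 and 2 held 55 and 58 cells, with 6 to 16 cells in a mouse, so values there rest on few UMIs. Depth differed between stages, with medians from 2773 UMIs a cell (stage 9) to 36790.5 (stage 6). The order is one of clusters, and the levels along it were described, not tested.

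The ADAM genes did not appear together. In controls the level first reached 50% of its highest stage in stage 3 for Adam2 and Adam5, in stage 4 for Adam32, in stage 5 for Adam18 and Adam3, and in stage 8, among the round spermatids, for Adam1a. The chaperones were as far apart: stage 3 for Clgn, stage 8 for Pdilt and stage 11 for Calr3. Tex101 was the earliest, at stage 2.

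**Figure D1:**
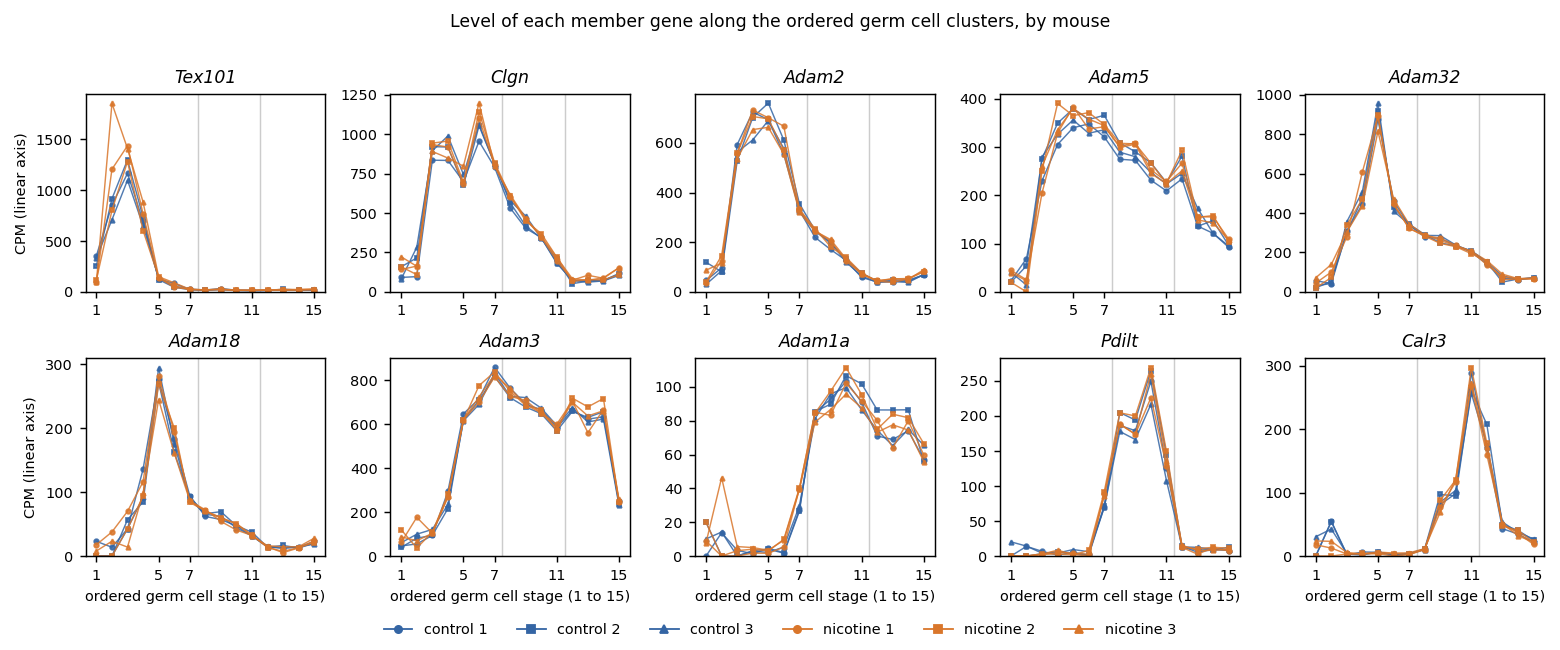
Level of each of the 10 genes (CPM, linear axis from 0, a separate scale per gene) in the 15 germ cell stages. Each line is 1 mouse, blue for control and orange for nicotine, and grey vertical lines mark where late spermatocyte-like cells give way to round and then to elongating spermatid-like cells. By the mean of the controls, Tex101 peaked at stage 3 (1188 CPM), Adam2, Adam5, Adam18 and Adam32 at stage 5, Adam1a and Pdilt at stage 10 and Calr3 at stage 11.

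Adam2 codes for fertilin beta, the partner that ADAM1A and other ADAMs need for stability. Its level was 96.5, 80.9 and 85.1 CPM in the 3 controls at stage 2 and 593, 527 and 563 CPM at stage 3, a ratio of means of 6.41. The 2 stages did not overlap. Control 1 was highest at stage 4, with 724 CPM, but the highest mean of the controls was at stage 5, with 693, 760 and 690 CPM. From there the level was lower at each later stage to stage 12, with 337 ± 16.3 CPM (SD, n = 3) in late spermatocyte-like cells, 126 ± 5.76 at stage 10 and 40.2 ± 1.96 at stage 12.

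Adam5, Adam18 and Adam32 code for testis ADAM proteins that lie beside Adam3 in the genome. At stage 5 Adam18 had 276, 272 and 295 CPM against 136, 84.6 and 91.9 CPM at stage 4 in the controls. Adam32 had 876, 919 and 957 CPM at stage 5 and 446, 476 and 509 CPM at stage 4. Both therefore had their highest level in the same cluster of early to pachytene spermatocyte-like cells, with no overlap with the stage before. That cluster was much shallower than its neighbours, with a median of 5342 UMIs a cell against 33328 at stage 4 and 36790.5 at stage 6. The highest stages of Adam2 and Adam5 and the onsets of Adam18 and Adam3 also rest on it. The part of depth in these levels was not tested. Adam5 was flatter, with 340, 379 and 356 CPM at stage 5, 341 ± 22.8 (SD, n = 3) at stage 7 and still 254 ± 24.6 at stage 12, when Adam18 was at 14.3 ± 0.349.

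Adam3, for the surface protein whose maturation the chaperones serve, was 93.8 to 121 CPM in the controls at stage 3 and 647, 620 and 615 CPM at stage 5. It was highest at stage 7, with 858, 816 and 831 CPM, and stayed between 582 ± 12.3 and 737 ± 23.5 CPM (SD, n = 3) from stage 8 to stage 14. Only the last stage was lower, at 250, 235 and 230 CPM, with no overlap with the stage before (633, 656 and 623 CPM). That last stage was placed by its low Tnp1 and Tnp2, the transition proteins that replace histones: its mean was 1547 CPM for Tnp1 against 33734 CPM in the cluster of stage 14.

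Adam1a, for the fertilin alpha that pairs with ADAM2 inside the endoplasmic reticulum, came far later than its partner. The controls had 2.01, 1.67 and 5.33 CPM at stage 6, 27.4, 26.5 and 29.6 CPM at stage 7, and 85.0, 85.4 and 81.1 CPM at stage 8. The 3 stages did not overlap. The highest level was 103 ± 3.51 CPM (SD, n = 3) at stage 10, and 59.5 ± 5.2 CPM remained at stage 15, so Adam1a was highest in cells where Adam2 was at 126 CPM, 17.6% of its own highest level.

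Among the chaperones, Clgn, which holds new glycoproteins until they are folded, was 96.5, 216 and 284 CPM in the controls at stage 2 and 835, 921 and 895 CPM at stage 3. It was highest at stage 6, with 956, 1054 and 1064 CPM, and was lower through the round spermatids, from 559 ± 23.8 CPM (SD, n = 3) at stage 8 to 192 ± 13.9 at stage 11 and 65.1 ± 11.4 at stage 12. The Clgn and Adam2 profiles were alike, with Pearson's r of 0.952 over the 13 named cell classes, a description with no test because the classes share their libraries.

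Pdilt, a testis relative of protein disulfide isomerase, was at 1.34, 1.67 and 6.22 CPM in the controls at stage 6. It was at 69.6, 72.1 and 69.5 CPM at stage 7 and 186, 205 and 178 CPM at stage 8, with no overlap between the 3 stages. After its highest level of 250, 265 and 217 CPM at stage 10 it was at 13.2, 13.7 and 13.1 CPM at stage 12. Pdilt had the largest share of its UMIs in round spermatid-like cells, 81.1% ± 1.84 (SD, n = 3) in the kept cells of controls. The share was 62.0% ± 5.29 for Adam1a, 59.2% ± 3.18 for Calr3 and 33.1% to 46.5% for Adam2, Adam3, Adam5, Adam18, Adam32 and Clgn. That class held 16.8% ± 1.84 of the kept cells of controls. It was deep, with a median of 16587 UMIs a cell against 2446 over all kept cells. The shares were not scaled to the class's share of all UMIs, so they do not rank how limited a gene is to a class.

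Calr3, the calreticulin relative, was last. It was at 10.8, 11.1 and 10.0 CPM in the controls at stage 8, 98.6, 94.8 and 104 CPM at stage 10 and 289, 262 and 257 CPM at stage 11, then 170, 208 and 176 CPM in the first elongating stage. By stage 13 it was at 48.8 ± 5.24 CPM (SD, n = 3). The 3 chaperones therefore followed each other, and at stage 11, where Calr3 was highest, Clgn stood at 18.8% of its own highest level. At stage 2 Calr3 was 55.1, 53.9 and 42.6 CPM in the controls, which rests on 11 UMIs over all 6 mice.

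Tex101 ran ahead of the others and was gone before the spermatids. It was at 355, 258 and 335 CPM in the controls at stage 1, 1166, 1299 and 1099 CPM at stage 3 and 127 ± 6.7 CPM (SD, n = 3) at stage 5. From stage 7 on it lay between 13.1 and 26.5 CPM, and the level at stage 3 was 90.9 times that at stage 11. Early spermatocyte-like cells held 45.5% ± 2.43 of its UMIs.

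**Figure D2:**
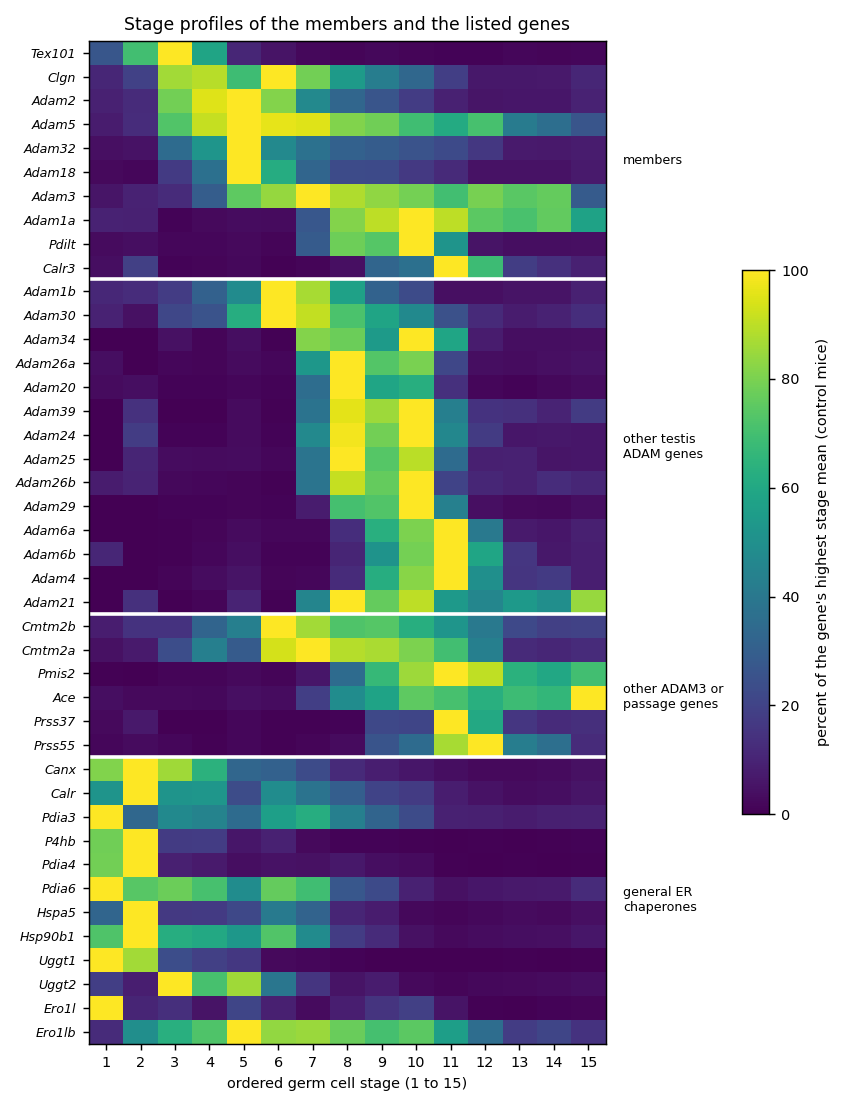
Control mean level at each of the 15 stages as a percentage of the gene's own highest stage (color), for the 10 members, 14 other testis ADAM genes, 6 other genes needed for ADAM3 or uterotubal passage and 12 general chaperones and disulfide isomerases of the endoplasmic reticulum. Most of the other testis ADAM genes are brightest among stages 8 to 11, and most of the general chaperones at stages 1 and 2.

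The other ADAM genes with known testis expression leaned to the late side. All 14 reached 20 CPM in some stage, and 12 of 14 were highest in round spermatid-like cells: 4 at stage 8, 5 at stage 10 and 3 at stage 11. The exceptions were Adam1b, the fertilin alpha of the sperm surface, and Adam30, which were highest at stage 6 with 181 and 107 CPM. Of the 12 broadly expressed ADAM genes, 6 reached 20 CPM, and 5 of these were highest in stage 1 or 2. Those 2 stages held only 37102 to 98656 UMIs in a control, so few UMIs suffice there to reach 20 CPM. The filter thus favours genes highest in these stages, and no timing is read from this count. Adam10, a sheddase of many tissues, was at 271 CPM in stage 2.

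General folding genes of the endoplasmic reticulum had another timing from that of Clgn, Pdilt and Calr3. Of 12 such genes, 10 were highest at stage 1 or 2, among them Hspa5 (BiP, 1244 CPM), Hsp90b1 (1011 CPM), Calr (696 CPM) and Canx (355 CPM) at stage 2. Over the 12 genes the median level was 93.2% of the gene's highest at stage 2, 27.3% at stage 7, 5.17% at stage 10 and 2.47% at stage 12. Over the 10 members the median was 72.0% at stage 5 and 35.1% at stage 10. Of 10 further genes that ADAM3 or uterotubal passage needs, 9 reached 20 CPM: Ly6k, a GPI-anchored partner of TEX101, was highest at stage 3 (737 CPM), Cmtm2b and Cmtm2a at stages 6 and 7 (1608 and 1509 CPM), Pmis2 and Prss37 at stage 11 (505 and 411 CPM) and Ace, a peptidase with a testis form that fertility needs, at stage 15 (389 CPM).

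Adam18, Adam3, Adam5 and Adam32 stand in a row on the minus strand of mouse chromosome 8 (GRCm38), from Adam18 at chr8:24602246-24674755 through Adam3 at chr8:24677225-24725852 and Adam5 at chr8:24727093-24824369 to Adam32 at chr8:24836140-24948804. The row spans 346559 bases, holds no other protein-coding gene, and has gaps of 1240 to 11770 bases. The next gene, Adam9, is not testis-specific and was highest at stage 2, which held few UMIs. Within the row the profiles differed: over the 13 classes Adam18 and Adam32 had r = 0.956, Adam3 and Adam5 r = 0.810, and Adam3 and Adam18 r = 0.502. Calr3 (chr8:72424176-72443870, minus strand) and Clgn (chr8:83389867-83428552, plus strand) lie elsewhere on chromosome 8, Adam2 on chromosome 14 (chr14:66027329-66077733), Pdilt (chr7:119486587-119523489) and Tex101 (chr7:24668007-24676675) on chromosome 7, and Adam1a on chromosome 5 (chr5:121518576-121545482), all on the minus strand except Clgn.

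Of the 10 genes, 4 had a promoter in the RefSeq table for GRCm38.p6: Tex101, Adam1a, Pdilt and Calr3. The bases before the RefSeq start are shown for Tex101 (stage 2), Pdilt (stage 8) and Calr3 (stage 11), which range from the earliest to the latest of the 10 genes, and they end where an annotated exon of the gene begins. Capitals mark matches to AACNGNC (a core of MYB factors), GTTGCC (part of an RFX site) or TGACG (part of TGACGTCA, the cyclic AMP response element, so any full element also holds TGACG), searched on both strands.
Tex101 promoter, chr7:24672051-24672300, minus strand: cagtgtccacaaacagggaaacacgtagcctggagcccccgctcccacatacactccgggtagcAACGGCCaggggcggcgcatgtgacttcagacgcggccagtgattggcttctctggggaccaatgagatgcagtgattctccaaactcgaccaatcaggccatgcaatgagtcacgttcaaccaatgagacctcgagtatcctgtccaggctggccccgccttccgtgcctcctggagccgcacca
Pdilt promoter, chr7:119523490-119523732, minus strand: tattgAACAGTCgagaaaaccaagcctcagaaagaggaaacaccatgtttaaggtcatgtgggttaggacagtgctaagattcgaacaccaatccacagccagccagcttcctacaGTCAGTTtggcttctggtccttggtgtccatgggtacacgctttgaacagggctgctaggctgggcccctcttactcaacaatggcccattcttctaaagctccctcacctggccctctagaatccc
Calr3 promoter, chr8:72443871-72444028, minus strand: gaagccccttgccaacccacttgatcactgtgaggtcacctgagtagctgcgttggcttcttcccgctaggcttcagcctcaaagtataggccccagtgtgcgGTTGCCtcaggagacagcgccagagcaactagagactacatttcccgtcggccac

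Counted back from the RefSeq start, the Tex101 match began at base -186, the Pdilt matches at -245 and, on the other strand, at -134, and the Calr3 match to GTTGCC at -147. The RefSeq start does not always coincide with the end of the GRCm38 gene model. Of the 250 bases before it, 92 lay in annotated exons of Calr3, 7 in those of Pdilt and all 250 in those of Adam1a, and these are not shown. The Tex101 stretch lay inside its longest gene model but in no exon. A match to TGACG at -49 of Calr3 was in the exonic part, and the table gives Calr3 another start inside the gene, also not shown, with GTTGCC at -49. The Adam1a stretch held none of the motifs. In all 32851 promoters of the table (300 bases each), 32.8% held AACNGNC, 12.5% GTTGCC, 20.8% TGACG and 1.79% TGACGTCA, so single matches are common.

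Genes with the most similar profile were sought among 9487 genes with at least 50 CPM in some class, by Pearson's r of log2(CPM + 1) over the 13 named classes of the controls. The closest to Adam3 were Ifitm7 (r = 0.980), Efcab6 (0.978) and Cd55b (0.976), and only 6 genes exceeded 0.95. Adam5 and Tex101 had 4 such genes each, led by Tcte2 (0.973) and 4930447C04Rik (0.971). Profiles like those of Adam1a, Calr3 and Clgn were common, with 170, 113 and 110 genes above 0.95 and Spag4 (0.990), Fam71a (0.992) and Lca5l (0.988) in front. The leading gene was 1700026D11Rik (0.985) for Adam2, Abca14 (0.979) for Adam18, Ankrd36 (0.983) for Adam32 and 4930558C23Rik (0.986) for Pdilt, which was also close to Acrv1 (0.985), for a protein of the acrosome.

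Somatic cells were taken to lack these genes, and their UMIs there were used as a background level. Its source, such as free RNA or doublets left in, was not tested. The Sertoli-like cluster also passed 3 pachytene and 4 late spermatocyte markers. Leydig-like cells, with a control median of 7710 UMIs, had 1.25% (Tex101) to 14.3% (Adam5) of the highest stage level. Sertoli-like cells, with 960 UMIs, had 7.24% (Tex101) to 64.3% (Adam5), with 309 CPM of Adam2, 455 of Adam3 and 469 of Clgn. The members' values in Sertoli-like cells, and low values such as those of Calr3 before stage 8, were therefore read as background.

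Nicotine and control mice were compared with edgeR's quasi-likelihood test on summed counts per mouse, with Benjamini-Hochberg adjustment over all genes tested and a threshold of 0.05. Over all kept cells no member passed: 0 of 10, and none at an unadjusted p under 0.05, against 0.264% of all 21998 genes (58 genes, 2 higher and 56 lower). DESeq2 also called 0 members. The groups overlapped for 9 of 10 members, where 10.7% of all genes did not overlap. Mean levels in controls and nicotine mice were 620 and 619 CPM for Adam3, 199 and 196 for Adam2, 416 and 411 for Clgn, 64.9 and 67.6 for Adam1a, and 77.0 and 85.0 for Calr3.

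Tex101 was the member without overlap over all cells. It had 53.4, 56.1 and 56.1 CPM in controls and 63.9, 57.6 and 61.7 CPM in nicotine mice, a log2 fold change of 0.16 ± 0.078 (SE; adjusted p = 0.769, edgeR). The same order was seen in the early to pachytene spermatocyte-like class (stage 5 alone), with 127, 121 and 134 against 138, 146 and 149 CPM (log2 0.18, adjusted p = 0.873, edgeR). In the spermatogonium-like cells of stage 1 the order was opposite, with 355, 258 and 335 CPM against 97.7, 119 and 95.3 CPM, on 106 UMIs and 6 to 12 cells a mouse, which was too few to test. Stage 2, with 6 to 16 cells a mouse, had 854, 916 and 709 against 1207, 802 and 1855 CPM, with overlap.

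Within the 11 classes that had enough cells in every mouse, members gave 92 tests, of which 2 passed and 8 had an unadjusted p under 0.05, where 0.236% of the 112497 tests over all genes passed (266). Both calls were in late spermatocyte-like cells. In the other 10 classes DESeq2 called 0 members as well.

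**Figure D3:**
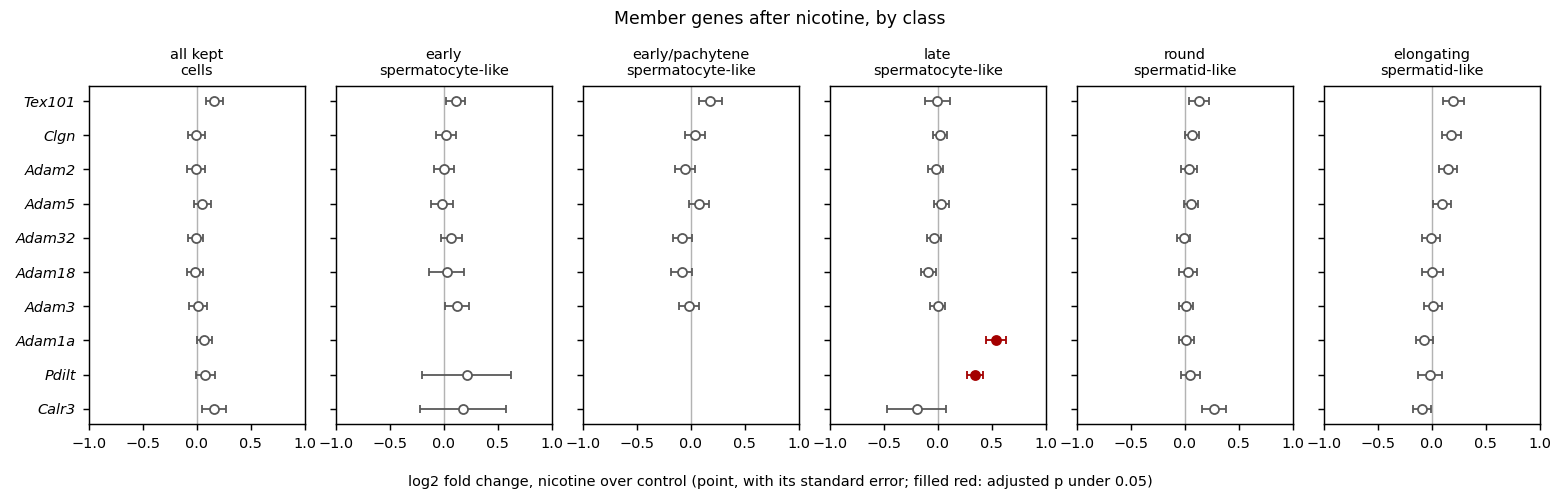
Log2 fold change of nicotine against control (point) with its standard error (bar) from edgeR for each member, over all kept cells and in 5 germ cell classes. Filled red points have an adjusted p under 0.05, and only Adam1a (0.54) and Pdilt (0.35) in late spermatocyte-like cells are filled.

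In late spermatocyte-like cells (stage 7), 2 of the 10 members, Adam1a and Pdilt, were higher after nicotine. Adam1a had 27.4, 26.5 and 29.6 CPM in controls and 39.8, 40.2 and 39.4 CPM in nicotine mice. Every nicotine mouse lay above every control, and the fitted change was 0.54 ± 0.091 on the log2 scale (SE; adjusted p = 0.0122, edgeR). Pdilt had 69.6, 72.1 and 69.5 CPM against 88.0, 91.6 and 85.5 CPM, again with no overlap, and changed by 0.35 ± 0.071 on the log2 scale (SE; adjusted p = 0.0211, edgeR). This class held the most called genes, 1.60% of 14484, and 1.36% were called higher against 0.242% lower.

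The 8 other members did not pass in these cells. Adam18 did not overlap either, with 94.4, 91.9 and 89.2 CPM in controls and 86.0, 83.9 and 87.0 CPM in nicotine mice (log2 -0.09, adjusted p = 0.663, edgeR), so that 3 of 10 members did not overlap, against 19.0% of genes. Means in controls and nicotine mice were 835 and 825 CPM for Adam3, 806 and 807 for Clgn, 337 and 328 for Adam2, 341 and 344 for Adam5, and 342 and 330 for Adam32.

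Of 14 other testis ADAM genes, 13 were tested here, and 3 passed, all higher: Adam20 (44.3 to 58.9 CPM, log2 0.43, SE 0.079, adjusted p = 0.0122, edgeR), Adam26a (50.8 to 63.6 CPM, log2 0.34, adjusted p = 0.0405, edgeR) and Adam29 (6.71 to 10.5 CPM, log2 0.68, adjusted p = 0.0357, edgeR). All 3 have their highest level in round spermatid-like cells. Adam20 kept its call in 8 of 14 alternatives (edgeR adjusted p 0.000857 to 1.00) and lost it without control 2 (0.0853), nicotine 2 (0.101) or nicotine 3 (0.0662), with doublets kept (0.0624), with at least 1000 UMIs per cell (0.0519) and with equal cell numbers from each finer cluster (1.00). Adam26a kept it in 6 of 14 and Adam29 in 4 of 13, and of the 6 fits without 1 mouse only that without control 3 kept either (edgeR adjusted p 0.0140 to 0.228 and 0.0279 to 0.212). The list's median log2 fold change was 0.29, that of the 10 members 0.00 and that of all 14484 genes -0.01. None of the 12 general chaperones, 10 genes of ADAM3 or uterotubal passage or 4 tested broad ADAM genes passed in this class.

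The make-up of the late spermatocyte-like class also differed between the groups. At the finer clustering, cluster 18, with the higher Adam1a and Pdilt, held 53.2%, 51.8% and 63.2% of its cells in controls and 71.2%, 67.9% and 69.3% in nicotine mice, and cluster 21 held 40.1% ± 5.88 against 24.7% ± 3.07 (SD, n = 3). Neither share overlapped. All 10 round spermatid markers were detected, and their sum was 1707 to 1865 CPM in controls and 2113 to 2196 CPM in nicotine mice, while the 10 late spermatocyte markers summed to 1913 to 2081 and 1821 to 1891 CPM. The 8 Leydig cell markers summed to 24.4 to 27.6 and 19.8 to 21.1 CPM. Median depth was 16423, 16240 and 16860 UMIs in controls and 13952, 15449 and 13980 UMIs in nicotine mice.

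**Figure D4:**
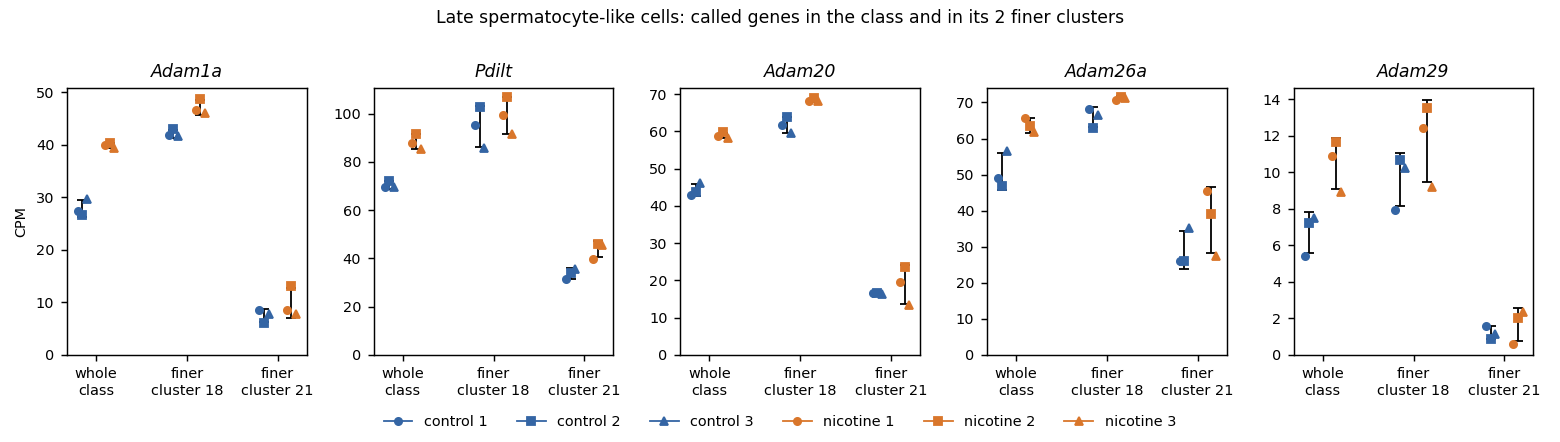
CPM per mouse (points) with mean and SD (bars) of Adam1a, Pdilt, Adam20, Adam26a and Adam29 in the late spermatocyte-like class and in its finer clusters 18 and 21, blue for control and orange for nicotine. The gap between groups for Adam1a is 27.8 to 39.8 CPM in the class and 42.1 to 47.1 CPM within finer cluster 18.

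Within finer cluster 18 the differences were smaller. Adam1a had 41.8, 42.9 and 41.5 CPM in controls and 46.5, 48.7 and 46.0 CPM in nicotine mice, which did not overlap (log2 ratio of means 0.16). In finer cluster 21 Adam1a overlapped, with 8.45, 6.04 and 7.83 against 8.59, 13.2 and 7.85 CPM (log2 ratio 0.41). Pdilt overlapped in cluster 18 (94.6 and 99.2 CPM on average), but not in cluster 21, with 31.2, 33.9 and 35.7 against 39.9, 45.9 and 45.5 CPM (log2 ratio 0.38). Adam20 went from a mean of 61.7 to 68.4 CPM (log2 ratio 0.15) and Adam26a from 65.9 to 71.2 CPM (0.11) in finer cluster 18, both without overlap, and Adam29 from 9.61 to 11.7 CPM (0.29) with overlap. With the same number of cells drawn from each finer cluster in every mouse, neither gene passed (log2 0.20 for Adam1a and 0.13 for Pdilt, adjusted p = 1.00 for both, edgeR). Adam1a kept its call in 10 of 14 alternatives (edgeR adjusted p 0.000187 to 1.00). It was also lost without control 2 (0.0853), without nicotine 2 (0.0834) and with doublets kept (0.0693). Pdilt kept its call in 6 of 14 (0.00433 to 1.00), and of the 6 fits without 1 mouse only that without control 3 kept it.

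Adam1a shares its strand with Mapkapk5, at 1.44 and 1.96 CPM in this class, and Tmem116 on the other strand was at 56.3 and 55.8 CPM. The last 500 bases of Adam1a transcripts share stretches of 60 bases with 1 annotated gene, Gm42878. That gene is absent from the deposited count matrices, so reads of the pair could not be told apart. Whether its reads were counted as Adam1a is not known. The other 9 members shared no such stretch.

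Once Adam1a and Pdilt were fully expressed, no difference passed. In round spermatid-like cells 0 of 10 members were called by edgeR or DESeq2, with 1 at an unadjusted p under 0.05, beside 0% of 17942 genes, and all 10 overlapped, where 8.03% of genes did not. At stage 8 Adam1a had 85.0, 85.4 and 81.1 CPM in controls and 85.1, 84.3 and 79.2 CPM in nicotine mice, and at stage 10 Pdilt had 250, 265 and 217 against 226, 269 and 260 CPM. Both genes overlapped at each of stages 8 to 15.

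Elongating spermatid-like cells also gave 0 of 10 calls (1 with an unadjusted p under 0.05), beside 0.0216% of 13859 genes, although 4 of 10 members did not overlap, against 15.3% of genes. These were all higher in nicotine mice: Adam2 (46.5, 50.8 and 46.2 against 57.8, 55.0 and 54.4 CPM, log2 0.15), Adam5 (165, 185 and 169 against 192, 201 and 189 CPM, log2 0.09), Clgn (log2 0.18) and Tex101 (log2 0.20). Their edgeR adjusted p lay between 0.897 and 0.916.

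The early classes gave no call either. In the early to pachytene spermatocyte-like class (stage 5 alone) 0 of 7 tested members passed (0.105% of all genes). Adam32 was at 918 and 868 CPM and Adam2 at 714 and 687 CPM in controls and nicotine mice. In early spermatocyte-like cells 0 of 9 passed (0% of genes). In the low-UMI early spermatocyte-like cells 0 of 7 passed (0.0135% of genes), with 0 at an unadjusted p under 0.05, and likewise 0 of 7 in the low-UMI early to pachytene class (0% of genes), with 1 at an unadjusted p under 0.05. Only Tex101 in the early to pachytene class, given above, did not overlap between the groups, where 11.4% of genes did not, against 7.54%, 11.0% and 8.29% in the other 3 classes.

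In the somatic classes, where the genes were read as background, Sertoli-like cells gave 0 of 10 calls (0.238% of genes) and 2 members with an unadjusted p under 0.05. Adam1a had 25.5, 21.8 and 21.3 CPM in controls and 19.2, 18.1 and 15.5 CPM in nicotine mice (log2 -0.42, adjusted p = 0.787, edgeR), and Clgn 469 and 565 CPM (log2 0.24, adjusted p = 0.489, edgeR). Leydig-like and stromal-like cells gave 0 of 5 and 0 of 7 calls, with 0% of all genes called in each. By overlap, 3 of 10 members did not overlap in Sertoli-like cells, against 13.3% of genes, and all members tested overlapped in Leydig-like and stromal-like cells, where 8.32% and 12.4% of genes did not.

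The 23 clusters with enough cells were also tested one by one. Calr3 was the only member with calls outside the late spermatocyte-like cluster. Clusters without a called member had 0% to 0.447% of genes called, with 0.0214% in cluster 2 (the last elongating stage), 0.0176% in cluster 22, 0.0751% in cluster 7 and 0.115% in cluster 12. In the round spermatid-like class it had 121, 94.9 and 104 CPM in controls and 126, 118 and 137 CPM in nicotine mice (log2 0.27, unadjusted p = 0.0326, adjusted p = 0.998, edgeR), with overlap. Its cluster of stage 10, cluster 11, had 98.6, 94.8 and 104 against 117, 120 and 122 CPM, which did not overlap (log2 0.28, SE 0.067, adjusted p = 0.457, edgeR). At stage 11 the means were 269 and 280 CPM and at stage 12 they were 185 and 170 CPM, both with overlap.

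**Figure D5:**
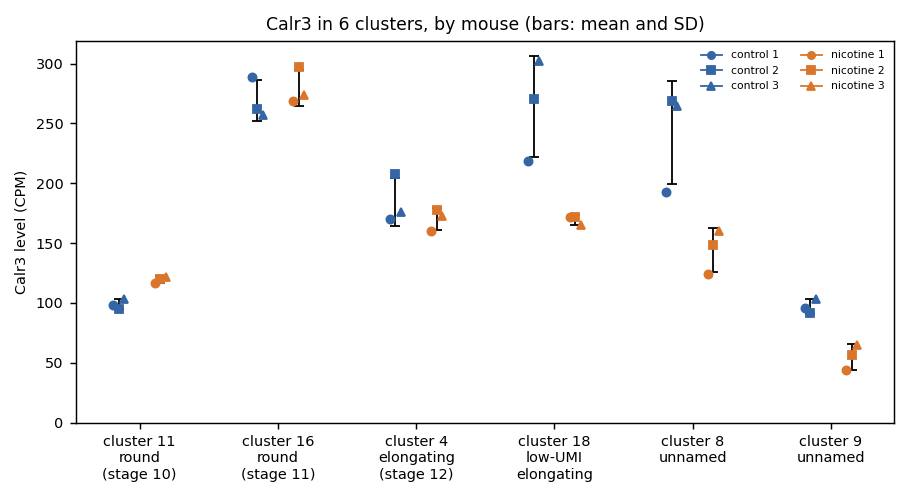
Calr3 level (CPM, axis from 0) in each mouse in clusters 11 and 16 (round spermatid-like), 4 (elongating spermatid-like), 18 (low-UMI elongating spermatid-like), 8 and 9 (unnamed), blue for control and orange for nicotine. The nicotine mice lie above the controls in cluster 11 and below them in clusters 18, 8 and 9.

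Calr3 fell in 3 clusters of shallow cells. In cluster 9, unnamed and led by haemoglobin genes (median 823 UMIs a cell), it had 96.1, 91.4 and 104 CPM in controls and 43.7, 56.5 and 65.2 CPM in nicotine mice (log2 -0.83, SE 0.17, adjusted p = 0.00417, edgeR), where 1.08% of all genes were called. In cluster 8, unnamed (median 1416 UMIs), it had 193, 269 and 265 against 124, 148 and 160 CPM (log2 -0.73, SE 0.15, adjusted p = 0.0190, edgeR), with 0.367% of genes called. In cluster 18, low-UMI elongating spermatid-like (median 1912 UMIs), it had 219, 270 and 302 against 172, 171 and 165 CPM (log2 -0.61, SE 0.12, adjusted p = 0.0477, edgeR) and was the only gene called (0.0141%).

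The fold changes kept their sign when any 1 mouse was left out, with log2 values of -0.97 to -0.68 in cluster 9, -0.86 to -0.64 in cluster 8 and -0.73 to -0.51 in cluster 18, but calls were lost. That in cluster 9 was lost without nicotine 1 (log2 -0.68, adjusted p = 0.144, edgeR, the highest over 9 alternatives that began at 0.000318), and DESeq2 gave no adjusted p there. Those in clusters 8 and 18 were lost with DESeq2 (adjusted p 0.706 and 0.516) and without control 3, nicotine 1, nicotine 2 or nicotine 3 (edgeR adjusted p 0.0528 to 0.134 for cluster 8 and 0.143 to 0.973 for cluster 18). Over the whole low-UMI elongating spermatid-like class Calr3 had 114, 102 and 127 against 67.7, 67.9 and 86.8 CPM (log2 -0.66, adjusted p = 0.192, edgeR), so 0 of 10 members passed there (0% of genes), 1 had an unadjusted p under 0.05, and 3 of 10 did not overlap, against 12.1% of genes.

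Other markers and the make-up of these clusters moved with Calr3. In cluster 9, 6 marker lists did not overlap between the groups. The 10 elongating spermatid markers summed to 21074 to 27454 CPM in controls and 15767 to 20047 CPM in nicotine mice, and the 10 late spermatocyte markers to 1396 to 1424 and 1654 to 1720 CPM. The somatic lists were lower in nicotine mice: 162 to 258 and 88.6 to 124 CPM for the 8 Leydig markers, 92.5 to 114 and 54.9 to 78.8 CPM for the 10 Sertoli markers, 21.2 to 29.3 and 9.41 to 16.02 CPM for the 7 stromal markers, and 10.9 to 14.7 and 3.64 to 8.24 CPM for the 6 myoid markers. In cluster 8, 5 lists did not overlap. The 10 round spermatid markers summed to 2124 to 2217 and 1796 to 1946 CPM, 9 of 10 pachytene markers (Ccnb3 was at 0) to 2976 to 3523 and 3554 to 3790 CPM, and the 10 late spermatocyte markers to 707 to 762 and 913 to 969 CPM. There 9 of 10 Sertoli markers (Wt1 was at 0) summed to 84.8 to 108 and 30.1 to 67.2 CPM and the 8 Leydig markers to 85.4 to 108 and 55.4 to 72.0 CPM. In cluster 18 only 2 lists did not overlap: the late spermatocyte markers at 464 to 523 and 541 to 599 CPM, and the Leydig markers at 43.7 to 72.0 and 25.7 to 42.5 CPM.

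By finer cluster, every piece had a lower mean of Calr3 in nicotine mice, and 5 of 7 did not overlap. In cluster 8 the means were 362 and 206 CPM in the larger piece (1111 cells), with no overlap, and 115 and 87.6 CPM in the other (904 cells), with overlap. In cluster 18 the piece with the most Calr3 was the smallest (519 cells), with 382 and 161 CPM (log2 ratio of means -1.25), while the largest (845 cells) had 281 and 226 CPM (-0.31), neither with overlap, and the third piece (749 cells) had 86.2 and 57.4 CPM with overlap. In cluster 9 the larger piece had 78.9 and 47.4 CPM and the other 161 and 114 CPM, again with no overlap. Shares of the pieces differed too: the low-Calr3 piece of cluster 18 (86.2 CPM in controls) held 26.6% ± 10.6 of its cells in controls and 41.9% ± 4.31 in nicotine mice (SD, n = 3). The part of these differences in the level of Calr3 was not tested.

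Few genes of the related lists passed in single clusters. Ace was lower in cluster 9 (log2 -0.89, SE 0.15, adjusted p = 0.000325, edgeR), and Hspa5 and Hsp90b1 were lower in the unnamed cluster 19 (log2 -0.51 and -0.39, adjusted p = 0.0163 and 0.0380, edgeR), where 0.447% of genes were called. Over all kept cells 0 genes of the 4 lists passed.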

How the data were processed

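Dissociated testis cells of 6 mice were profiled by 10x Genomics 3′ v3 sequencing. The values are the deposited UMI counts, which Cell Ranger 7.2.0 made on GRCm38 (mm10), per the submitters' processing notes. Barcodes entered with 500 or more UMIs, 250 or more genes and mitochondrial UMIs below 20% (scanpy 1.11.5). Scrublet's own limit marked 0% to 1.29% of cells, so the highest scores, 0.8% per 1000 cells, were removed as doublets (8.62% to 9.76%). Leiden clustering (resolution 1) used 30 components of 2000 variable genes, without 58 listed genes. Clusters were named by 3 or more markers at 1.5-fold in 10% of cells, and germ cell clusters with a median under 2467 UMIs are called low-UMI. Sums per mouse and class, with 20 or more cells in every mouse, were tested with edgeR 4.0.16 (filterByExpr, TMM, robust quasi-likelihood fit, Benjamini-Hochberg). Alternatives were DESeq2 1.42.0, other filters, clusterings and cell draws, a replicate block, and leaving out each mouse. The 10 genes and the lists were chosen with earlier results of these data known. Other genes are named if called, otherwise the 2 highest of a list, or as examples of a stage chosen after their values were seen, and by likeness from the 3 closest. On simulated counts the late spermatocyte-like fit recovered 59.7% of 1.5-fold and 83.6% of 2-fold changes, with 14 of 175 calls outside the changed genes. Recovery of 1.5-fold changes was lower elsewhere: 41.8% in round spermatid-like cells, 53.7% in elongating spermatid-like cells and 52.2% over all kept cells. In the same order, 17 of 158, 19 of 175 and 19 of 171 calls lay outside the changed genes. No pseudocount entered the tests.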

Additional observations from a re-analysis of the deposited data

Results flagged for a closer look

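Log2 fold changes of opposite direction, with no overlap between groups in either place, were found for 2 members. All members were searched over the tested classes, but single clusters only for Calr3, among those with an unadjusted p under 0.05 (edgeR). For Adam1a the change was 0.54 in late spermatocyte-like and -0.42 in Sertoli-like cells, a difference of 0.896 between the mice's own log2 values. For Calr3 it was 0.28 in cluster 11, and the difference was 0.525 from cluster 2 (-0.34), 0.959 from cluster 3 (-0.77), 1.02 from cluster 8 (-0.73), 1.11 from cluster 9 (-0.83) and 0.900 from cluster 18 (-0.61). Each of these 6 differences had an exact two-sided permutation p of 0.1, the smallest that 3 against 3 mice can give, so none can pass 0.05 by that test. The 6 were picked for full separation in opposite directions, which fixes this p in advance, so it adds no support. Mean Calr3 levels in cluster 2 were 24.6 CPM in controls and 20.6 CPM in nicotine mice, and in cluster 3 they were 17.5 and 10.6 CPM, near the somatic background (32.5 CPM in Sertoli-like cells).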

How the results depend on the processing

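The stages of highest level rest on cluster order and on rebuilt names, levels in stages 1 to 4 on few cells, and 3 mice a group limit what can be called. At 10% of the highest stage in place of 50%, onsets moved to stage 5.5 (a low-UMI cluster between stages) for Adam1a, 2 for Adam2, 3 for Adam3, 2 for Adam5, 3 for Adam18, 3 for Adam32, 1 for Clgn, 2 for Calr3, 7 for Pdilt and 1 for Tex101. In single mice, the onset of Adam5 moved to stage 4 in nicotine 2, and that of Adam32 to stage 5 in control 2 and in nicotine 2. Among the stages, the highest level of Adam2 was at stage 4 in control 1, nicotine 1 and nicotine 2, and that of Tex101 at stage 2 in nicotine 3. Low-UMI clusters, which are not stages, were higher for some genes and counted in single-mouse onsets. Adam5 had 414 CPM in low-UMI cluster 22 in controls, against 358 at stage 5, and peaked there in all mice but nicotine 1. So did Adam18 in control 1, nicotine 2 and nicotine 3, and Adam32 in control 2, nicotine 1 and nicotine 2. Calr3 peaked in low-UMI cluster 18 in controls 2 and 3 (270 and 302 CPM). With Spearman's rho, 7 of the 30 most similar genes were named again.

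The 58 genes called over all kept cells became 184 with DESeq2, 140 with no low-count filter, 128 with doublets kept and 0 to 48 without 1 mouse. The 0 came without control 3 (edgeR, 1749 genes at an unadjusted p under 0.05) and without nicotine 1 (1095 genes). The 266 genes called over the 11 classes became 620 with no filter, 986 with doublets kept, 53 with at least 1000 UMIs per cell, 559 at resolution 2, 14 with the same cells per finer cluster, 435 with clusters tested one by one (chosen after seeing the data) and 11 to 496 without 1 mouse. The 232 in late spermatocyte-like cells became 486, 5, 41, 526 and 0 under the first 5 of these and 0 to 457 without 1 mouse, the 0 without control 2 or nicotine 2.

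Members called in that class went from 2 to 0 with doublets kept, 1 with at least 1000 UMIs, 0 with the same cells per finer cluster and 0 to 2 without 1 mouse. With doublets kept, 3 members (Adam3 and Adam18 lower, Tex101 higher) were called in the early spermatocyte-like class, where 917 of 11787 genes were called. In that clustering the class held 816 cells, against 645 in the main one. In the low-UMI elongating spermatid-like class Calr3 was the 1 member called with no filter, and 0 to 1 were called without 1 mouse. No called single gene reversed under any alternative. Of the values of single genes under alternatives, 1405 kept their side of the threshold, 46 lost a call and 8 gained one.

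Replicate numbers are shared by both groups. Deviations of same-numbered mice correlated at -0.157, 0.642 and 0.0740, and those of mice with different numbers at -0.577 to 0.602. With 3 mice a group these values cannot tell whether the numbers pair the mice. With the replicate as a block 496 genes were called over the classes, 294 in late spermatocyte-like cells and 73 over all kept cells, and Calr3 became the 1 member called in low-UMI elongating spermatid-like cells.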
